A study of Mus musculus with 12 samples.

Results

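Peaks of lysine crotonylation (Kcr) in gene deserts were taken from the peak lists of 2 mouse hippocampus libraries, called learning and homecage. A desert peak lay on chromosomes 1 to 19, overlapped no protein-coding gene body and was more than 500 kb from the nearest start or end of any protein-coding gene in RefSeq GRCm38.p6. The first 1 Mb after position 3000000 of each chromosome was left out. Of 15844 autosomal learning peaks, 842 (5.31%) met the rule, and of 329508 autosomal homecage peaks, 27026 (8.20%) did. The rule used position alone and no peak measurement. The learning peak just inside the limit was 500147 bp from Hnf4g and the one just outside was 498248 bp from Nrsn1. In the homecage list the corresponding distances were 500070 bp from Prr16 and 499977 bp from Zwint.

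The series holds 12 libraries from mouse dorsal hippocampus, of which the 2 analysed here are chromatin immunoprecipitation sequencing (ChIP-seq) libraries made with a pan-Kcr antibody (PTM BIO, PTM-501). Learning is a library of C57BL/6J mice that underwent spatial object recognition training, in which object positions are learned, and homecage is a library of C57BL/6J mice left in their home cage. Both groups are unmodified mice of the same strain, with crotonate given to neither as far as the labels say, and whether a library pools animals is not given. The comparison addresses where on chromatin Kcr is detected with and without training. Each condition has 1 antibody library, so there is no replicate check and no test between conditions. Each value describes these libraries, and every interval is a 95% interval for counting error only. Peak lists of whole tissue carry no expression, so the tissue label was not checked against marker genes.

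Crotonylation is an acylation of lysine that on histones is known mainly from promoters and enhancers of active genes, where it is written by acetyltransferases such as p300 and bound by YEATS domain proteins. Gene deserts are long stretches without protein-coding genes, many of them beside genes for developmental transcription factors and cell adhesion molecules. They can hold distant enhancers and noncoding RNA genes, and much of their sequence has no assigned function.

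The deserts were not empty of annotation: 1225 noncoding RefSeq genes lay in them, 298 of them long noncoding RNA (lncRNA) genes. RefSeq promoter windows of 300 bases (250 before to 50 after the start) matched 230 starts of 205 desert genes. A homecage peak overlapped 24 of these 230 windows (10.4%, exact Clopper-Pearson interval 6.80% to 15.1%). The same share was not computed for promoters outside deserts or for other desert windows of 300 bases, so it cannot be read as enrichment. A learning peak overlapped 1 window, that of the lncRNA AA545190. The windows below show that window, those with the widest homecage peaks on chromosomes 12 and 1, and a window with a homecage peak and an AP-1 motif. They are from RefSeq GRCm38.p6, 5′ to 3′ on the gene's strand, with the bases inside the peak in capitals. AA545190 is at chr6:10974329-10974628 on the minus strand, in the desert between Nxph1 and Ndufa4, and a learning peak of 464 bp covers 218 of its bases.
AA545190: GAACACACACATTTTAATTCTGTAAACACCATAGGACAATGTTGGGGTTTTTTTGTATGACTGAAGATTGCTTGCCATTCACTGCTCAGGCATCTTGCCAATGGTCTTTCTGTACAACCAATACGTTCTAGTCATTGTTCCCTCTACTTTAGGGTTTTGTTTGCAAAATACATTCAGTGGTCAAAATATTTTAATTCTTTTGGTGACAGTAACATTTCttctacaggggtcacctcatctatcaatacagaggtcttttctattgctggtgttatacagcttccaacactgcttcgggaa
Gm40899 is at chr12:114764158-114764457 on the plus strand, between Adam6a and Zfp386, and a homecage peak of 2551 bp covers all 300 bases.
Gm40899: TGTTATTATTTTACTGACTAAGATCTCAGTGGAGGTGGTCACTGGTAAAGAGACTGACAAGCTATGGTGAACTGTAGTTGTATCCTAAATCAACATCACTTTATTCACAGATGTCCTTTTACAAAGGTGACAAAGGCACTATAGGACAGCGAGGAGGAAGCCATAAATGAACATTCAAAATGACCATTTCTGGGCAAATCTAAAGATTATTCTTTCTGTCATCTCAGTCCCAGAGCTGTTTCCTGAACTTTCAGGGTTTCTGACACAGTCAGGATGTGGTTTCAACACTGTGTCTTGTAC
Gm31973 is at chr1:101262480-101262779 on the plus strand, between Cntnap5b and Cdh20, and a homecage peak of 910 bp covers the whole window.
Gm31973: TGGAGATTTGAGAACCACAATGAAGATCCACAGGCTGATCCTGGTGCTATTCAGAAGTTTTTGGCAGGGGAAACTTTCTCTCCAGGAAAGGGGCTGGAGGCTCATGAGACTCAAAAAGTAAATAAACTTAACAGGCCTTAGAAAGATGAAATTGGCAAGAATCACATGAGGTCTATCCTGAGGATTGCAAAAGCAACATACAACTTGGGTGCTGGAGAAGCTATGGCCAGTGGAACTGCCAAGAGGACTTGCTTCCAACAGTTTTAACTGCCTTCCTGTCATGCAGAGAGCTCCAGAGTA
Gm34420 is at chr8:59478577-59478876 on the minus strand, between BC030500 and Aadat, and a homecage peak of 703 bp covers 49 bases at its 5′ end.
Gm34420: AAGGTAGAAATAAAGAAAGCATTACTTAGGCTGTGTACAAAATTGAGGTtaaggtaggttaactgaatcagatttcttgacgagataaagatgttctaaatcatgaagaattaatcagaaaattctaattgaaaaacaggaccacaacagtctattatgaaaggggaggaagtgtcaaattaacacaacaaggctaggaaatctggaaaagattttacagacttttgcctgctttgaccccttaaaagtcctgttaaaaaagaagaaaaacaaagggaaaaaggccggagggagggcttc
The AP-1 match of Gm34420 lies in the lower-case bases, outside the peak. Desert promoters were poor in GC: their median GC content was 42.3%, against 48.3% for autosomal lncRNA promoters and 52.7% for all 32851 RefSeq promoters. Their median number of CpG dinucleotides was 2, against 4 and 7. The 24 windows with a homecage peak had a median GC content of 45.3% and a median of 2 CpG, and the 205 windows with no peak in either list had 42.3% and 2. The AP-1 motif TGANTCA, searched on both strands, was in 10.0% of desert promoters, 9.25% of autosomal lncRNA promoters and 7.81% of all promoters. The cAMP response element TGACGTCA was in 0.870%, 0.990% and 1.79%, and as written no match to TGACGTCA is also a match to TGANTCA at the same bases. These matches are descriptions of the windows and not binding sites.

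Some peaks called desert peaks by the rule lie in antigen receptor loci, because RefSeq does not class variable, diversity and joining segments as protein-coding. Of the 246 deserts, 3 hold such segments. The interval between Adam6a and Zfp386 on chromosome 12 is part of the immunoglobulin heavy-chain locus, with 115 segments. The interval between Gm36448 and Dad1 on chromosome 14 holds 72 segments. Together the 3 carried 31 learning peaks and 866 homecage peaks. Segments of one family are near copies of each other, and how reads matching several copies were placed is not given in the sources used here. Density, sharing, median width and correlations are also given without these intervals.

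The deserts made up 201.9 Mb, which is 8.40% of an autosomal span of 2403 Mb, counted on each chromosome from its first peak to its last. Median desert length was 498.9 kb, the longest held 3.54 Mb, and 73 deserts held at least 1 Mb. Homecage peaks were found in every one of the 246 deserts, and 70 deserts held no learning peak. Learning peaks were sparser in deserts than elsewhere, and homecage peaks were nearly as dense as elsewhere. Learning density was 4.17 peaks per Mb (3.89 to 4.46) in deserts and 6.82 in other autosomal sequence, a ratio of 0.612 (0.570 to 0.656). Homecage density was 134 per Mb (132 to 135) in deserts and 137 elsewhere, a ratio of 0.974 (0.962 to 0.986). Without the antigen receptor intervals the ratios were 0.602 for learning and 0.964 for homecage. There were 32.1 homecage peaks for each learning peak in deserts (30.0 to 34.4) and 20.2 elsewhere, and 32.3 in deserts without the antigen receptor intervals. The lists carry no read depth, and its part in their lengths was not tested.

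The deserts did not behave alike across chromosomes, and the split follows 4 chromosomes. Learning density in deserts was 10.0 per Mb on chromosome 1, 7.65 on chromosome 10, 7.35 on chromosome 11 and 6.81 on chromosome 12. On the other 15 autosomes it ran from 1.70 on chromosome 16 to 3.48 on chromosome 4, with a median of 2.73. The 4 high values do not overlap the other 15. These 4 chromosomes come first in the row order of both deposited lists, which sort chromosome names as text, so that chromosome 13 follows 12 and chromosome 2 follows 19. The split was chosen after the densities were seen. Homecage density in deserts ranged from 137 to 151 per Mb on the 4 chromosomes and from 122 to 141 on the other 15, so these ranges overlap. Pooled, it was 145 per Mb (142 to 149) on the 4 and 130 (128 to 132) on the 15. The homecage list thus differed in the same direction, by less. In sequence outside deserts the learning ranges overlap as well, at 7.73 to 9.27 per Mb on the 4 chromosomes and 4.97 to 8.91 on the other 15. The medians there were 8.47 and 5.74. Of the 15, only chromosomes 4 (8.91) and 7 (8.11) reached the range of the 4. The cause of the split was not tested.

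**Figure D1:**
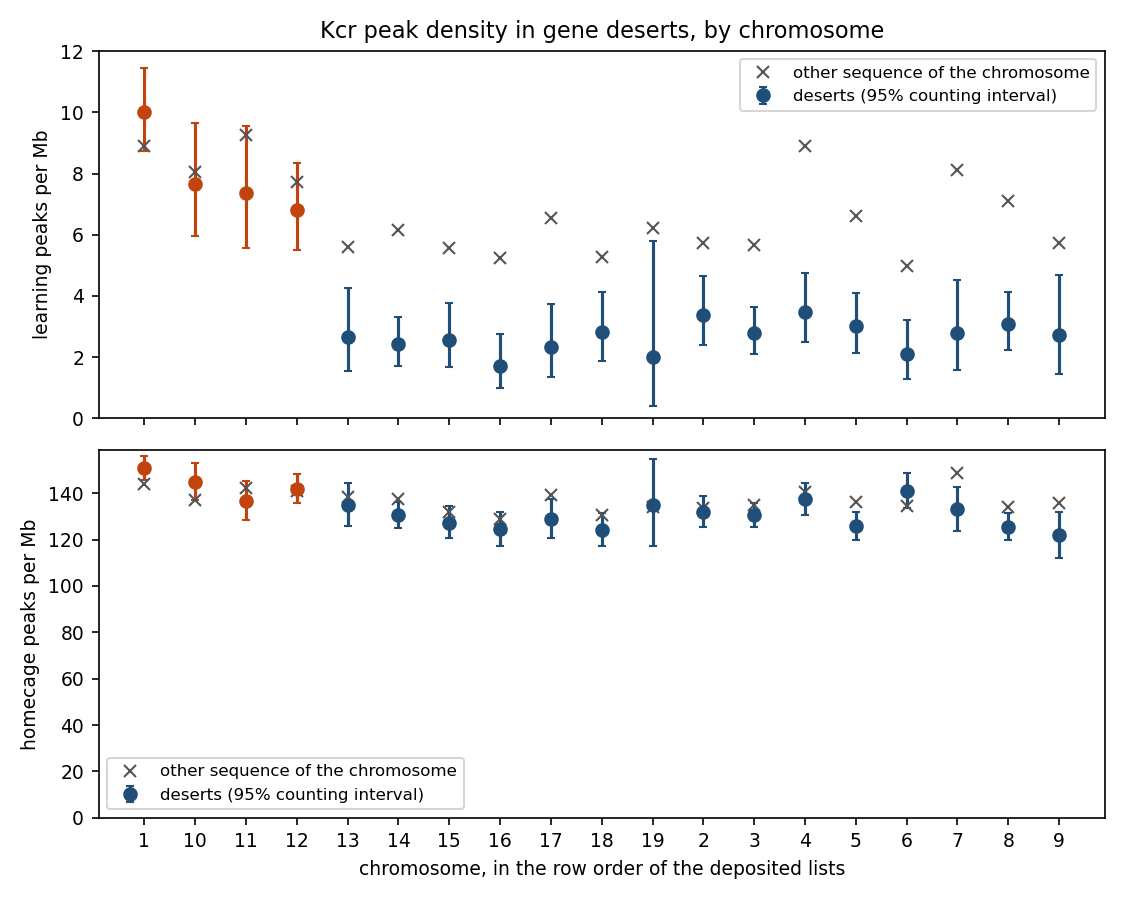
Peaks per Mb in gene deserts of each autosome for the learning list (top) and the homecage list (bottom), as points with 95% counting intervals, with the density of the chromosome's other sequence as crosses; chromosomes stand in the row order of the lists, and chromosomes 1, 10, 11 and 12 are orange. Learning points of those 4 chromosomes lie at 6.81 per Mb or above, those of the other 15 at 3.48 or below, and the homecage points span 122 to 151.

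Pooled over chromosomes 1, 10, 11 and 12, deserts carried learning peaks about as densely as the rest of those chromosomes. There, 433 learning peaks in 51.8 Mb of desert gave 8.36 per Mb (7.59 to 9.18), against 8.54 elsewhere, a ratio of 0.978 (0.884 to 1.08). On the other 15 autosomes, 409 learning peaks in 150.1 Mb gave 2.72 per Mb (2.47 to 3.0), against 6.30 elsewhere, a ratio of 0.432 (0.391 to 0.477). By single chromosome the ratio was 1.13 (0.971 to 1.30) on chromosome 1, with 213 of the 433 peaks, and 0.952 (0.736 to 1.21) on chromosome 10. On chromosomes 11 and 12 it was 0.794 (0.595 to 1.04) and 0.881 (0.704 to 1.09). On the other 15 it ran from 0.319 to 0.590. The lower learning density of deserts over all autosomes thus lay mainly on the 15 chromosomes. The 4 were picked for high desert learning density, which enters this ratio, so the choice favours a high ratio there. The homecage ratios were 1.03 (1.00 to 1.05) and 0.953 (0.939 to 0.967), on opposite sides of 1. Homecage peaks per learning peak in deserts numbered 17.4 on the 4 chromosomes and 47.7 on the other 15. Within chromosome 12, the 7 deserts of at least 1 Mb ran, in order of position, 4.37, 11.2, 5.76, 9.92, 3.90, 2.82 and 14.0 learning peaks per Mb, the last being the immunoglobulin interval. The deserts on either side of Flrt2, which encodes an axon guidance and adhesion protein, were the low ones at 3.90 and 2.82.

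Learning density fell with distance from genes on the 15 chromosomes and did not fall steadily on the 4. On the 15 chromosomes it was 7.83 per Mb inside protein-coding genes, 3.89 at 100 to 250 kb, 3.03 at 250 to 500 kb, 2.73 at 500 to 1000 kb and 2.71 beyond 1000 kb. Its decline was therefore mostly complete before the desert limit. On chromosomes 1, 10, 11 and 12 it was 9.61 inside genes, lowest at 6.59 in the class of 50 to 100 kb, and 8.15 and 8.81 in the desert classes. Homecage density was 141 per Mb inside genes and 129 beyond 1000 kb on the 15 chromosomes, and 144 and 150 on the 4.

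**Figure D2:**
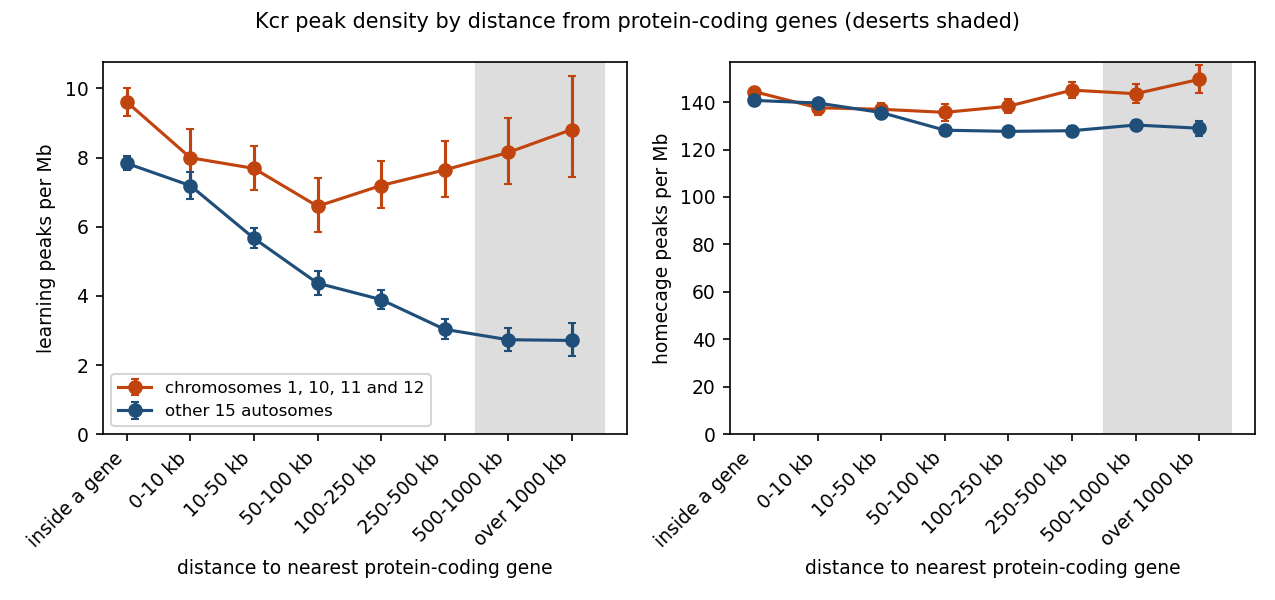
Learning (left) and homecage (right) peaks per Mb in classes of distance from the nearest protein-coding gene, with 95% counting intervals, for chromosomes 1, 10, 11 and 12 (orange) and the other 15 autosomes (blue); the desert classes are shaded. Learning density on the 15 chromosomes falls from 7.83 inside genes to 2.71 beyond 1000 kb, and on the 4 chromosomes ends at 8.81.

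The peaks that the lists share followed the same split. Of 842 desert learning peaks, 256 overlapped a homecage peak by at least 1 bp (30.4%, 27.3% to 33.6%), against 42.8% of all autosomal learning peaks and 43.5% of those outside deserts. Without the antigen receptor intervals the desert share was 30.2%. On chromosomes 1, 10, 11 and 12 the desert share was 186 of 433 (43.0%, 38.2% to 47.8%), beside 45.7% elsewhere on those chromosomes. On the other 15 autosomes it was 70 of 409 (17.1%, 13.6% to 21.1%), beside 42.7% elsewhere. Homecage peaks covered 5.21% of desert sequence, which is the share that a single point would meet. A learning peak has width and meets a homecage peak more often than a point does. The 5.21% is therefore too low as a baseline for these shares, and a baseline for whole peaks was not computed. Seen from the homecage list, 256 of 27026 desert peaks overlapped a learning peak (0.947%), against 2.03% of all autosomal homecage peaks. On the 15 chromosomes the share of learning peaks with a homecage overlap fell from 47.1% inside genes to 16% at 500 to 1000 kb, with 19.4% beyond 1000 kb. On the 4 it was 50.8% inside genes, 36.4% at 100 to 250 kb, 36.6% at 250 to 500 kb, 42.6% at 500 to 1000 kb and 43.8% beyond, and the intervals of the last 4 classes overlap. Of the 586 desert learning peaks with no overlap, 189 had a homecage peak within 1 kb (32.3%), and the median gap was 1964.5 bp. Outside deserts this was more frequent, at 3361 of 8471 such learning peaks (39.7%), with a median gap of 1455 bp.

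**Figure D3:**
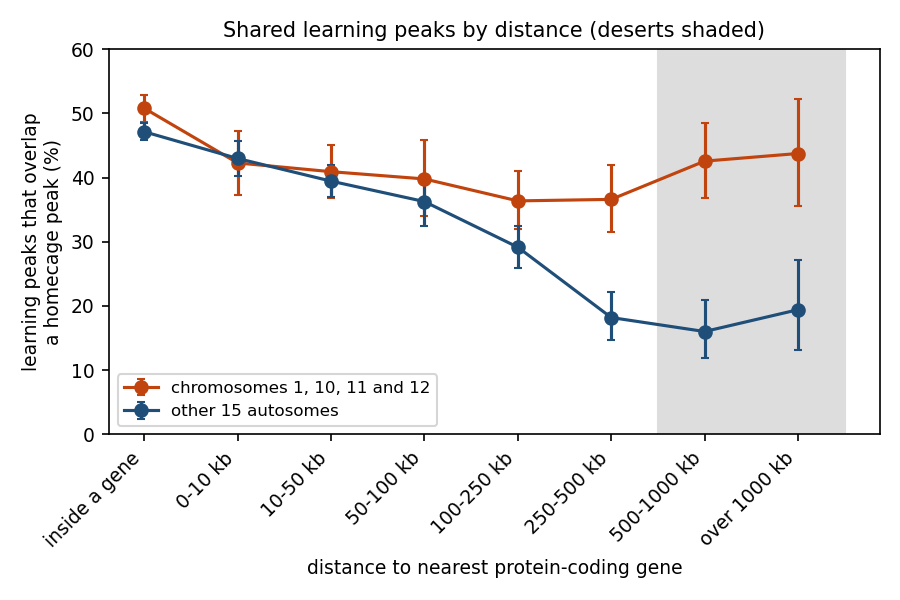
Percentage of learning peaks that overlap a homecage peak, by distance from the nearest protein-coding gene, with exact 95% intervals, for chromosomes 1, 10, 11 and 12 (orange) and the other 15 autosomes (blue); the desert classes are shaded. The blue points fall from 47.1% to 16% and 19.4% in the desert classes, and the orange points there are 42.6% and 43.8%.

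Width, the only size the lists hold, split in the same way in the learning list. Median width of desert peaks was 297 bp in learning (quartiles 188 and 409 bp) and 345 bp in homecage (218 and 485 bp), against 307 and 352 bp outside deserts. Without the antigen receptor intervals the desert medians were 296 and 344 bp. On chromosomes 1, 10, 11 and 12, 80 of 433 desert learning peaks were at least 500 bp wide (18.5%, 14.9% to 22.5%), close to the 17.6% outside deserts there. On the other 15 autosomes only 15 of 409 were (3.67%, 2.07% to 5.98%), against 15.1% outside deserts. All 6 desert learning peaks of at least 1000 bp lay on the 4 chromosomes, and the count of 0 of 409 on the other 15 allows a share of up to 0.898%. Homecage differed less: 25% of desert peaks on the 4 chromosomes and 22.2% on the other 15 were at least 500 bp wide. The shared percentage was 20.4% for desert learning peaks of 188 bp or less, 32.5% for 189 to 297 bp, 28.8% for 298 to 408 bp and 39.8% for 409 bp or more, so it did not rise steadily with width. In each of the 4 width classes cut at the desert quartiles, the desert share was below that of other learning peaks of the same widths, which were 58.6% for the widest class and 32.6% for the narrowest. This comparison by width pooled all autosomes. It was not made within either set of chromosomes, so it does not show a lower share at equal width on chromosomes 1, 10, 11 and 12. Desert homecage peaks that met a learning peak had a median width of 464 bp, against 344 bp for those that did not.

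The 5 widest desert peaks lay on chromosomes 1, 10 and 12 in the learning list and on chromosomes 1 and 12 in the homecage list. The widest learning peak, chr1:141193940-141195555 (1616 bp), lies 579.9 kb from the potassium channel gene Kcnt2 and overlaps a homecage peak of 392 bp by 339 bp. The next, chr10:72008831-72010415 (1585 bp), lies between Ipmk, an inositol phosphate kinase gene, and the kinetochore gene Zwint, and contains a homecage peak of 357 bp. A learning peak of 1490 bp at chr1:108352360-108353849, between Serpinb8 and the cadherin gene Cdh7, overlaps no homecage peak, and the nearest is 44 bp away. The widest learning peak with no homecage peak within 10 kb was 954 bp at chr1:145982304-145983257, between Rgs18 and Brinp3, with the nearest homecage peak 12536 bp away. None of these 4 touches a noncoding RefSeq gene. On the other 15 autosomes the widest shared learning peak was 812 bp at chr2:45924261-45925072, 806.8 kb from Zeb2, a gene for a transcription factor of neural development. This peak and the one without a neighbour within 10 kb were picked after the values were seen.

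The heavy-chain interval held 3 of the 5 widest desert homecage peaks. The widest, chr12:114774197-114778154 (3958 bp), lies in the lncRNA gene Gm40899 and contains a learning peak of 745 bp and another of 713 bp. Gm40899 spans 15.1 kb, and 6 learning and 9 homecage peaks lie in it or within 1 kb. The other desert lncRNA genes with several learning peaks were longer: Gm32647 (1284 kb) also had 6 desert learning peaks, with 181 desert homecage peaks, and Gm12132 (329.6 kb) had 3. Outside that locus, a homecage peak of 3178 bp at chr1:99262791-99265968, near the neurexin-family gene Cntnap5b, contains a learning peak of 146 bp. A homecage peak of 2676 bp at chr12:27897939-27900614, between the transcription factor gene Sox11 and Dcdc2c, contains a learning peak of 315 bp.

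Counts for single deserts are part of the same data as the split by chromosome. The longest desert, between the protocadherin genes Pcdh20 and Pcdh9 on chromosome 14 (3.54 Mb), held 7 learning peaks, none of them shared, and 443 homecage peaks. The desert between the adhesion genes Cntnap5b and Cdh20 on chromosome 1 (3.28 Mb) held 29 learning peaks, 18 of them shared, and 535 homecage peaks. Most learning peaks, 34, lay between Dsel and Cntnap5a on chromosome 1 (2.82 Mb), where 9 were shared and 503 homecage peaks were found. Between Lrrc4c, a synaptic adhesion gene, and Iftap on chromosome 2 (2.93 Mb) there were 11 learning peaks, none shared, and 401 homecage peaks. Between the splicing and RNA-binding factor gene Celf4 and Pik3c3 on chromosome 18 (3.51 Mb) there were 14 learning peaks, 3 shared, and 426 homecage peaks. Of the 73 deserts of at least 1 Mb, 3 had no learning peak: those between Fstl5 and Rapgef2 on chromosome 3, Cadm2 and Speer2 on chromosome 16, and Epha6 and Nsun3 on chromosome 16. They held 196, 158 and 154 homecage peaks, or 145, 128 and 137 per Mb, within the range of the other deserts of that length.

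The densest deserts for learning peaks were those between Adam6a and Zfp386 (14.0 per Mb), Brinp3 and the phospholipase gene Pla2g4a (12.5), Dsel and Cntnap5a (12.1), Immp2l and Dnajb9 (11.2), and Gm597 and Phf3 (10.8). All 5 lie on chromosomes 1 and 12. The 15 densest of the 73 all lie on chromosomes 1, 10, 11 and 12, which hold 21 of the 73. Learning density ranged from 2.82 to 14.0 per Mb with a median of 8.01 over those 21 deserts, and from 0 to 5.41 with a median of 2.55 over the other 52, so the ranges overlap at their ends. Across the 73 deserts the 2 densities were correlated, with Pearson's r = 0.582 and Spearman's rho = 0.496. Within the 21 deserts r was 0.632 and rho 0.578, and within the 52 r was 0.158 and rho 0.210. Without the antigen receptor intervals r was 0.585 over 71 deserts, 0.515 over 20 and 0.226 over 51. These are descriptions over deserts that share libraries, genome and sequence composition.

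**Figure D4:**
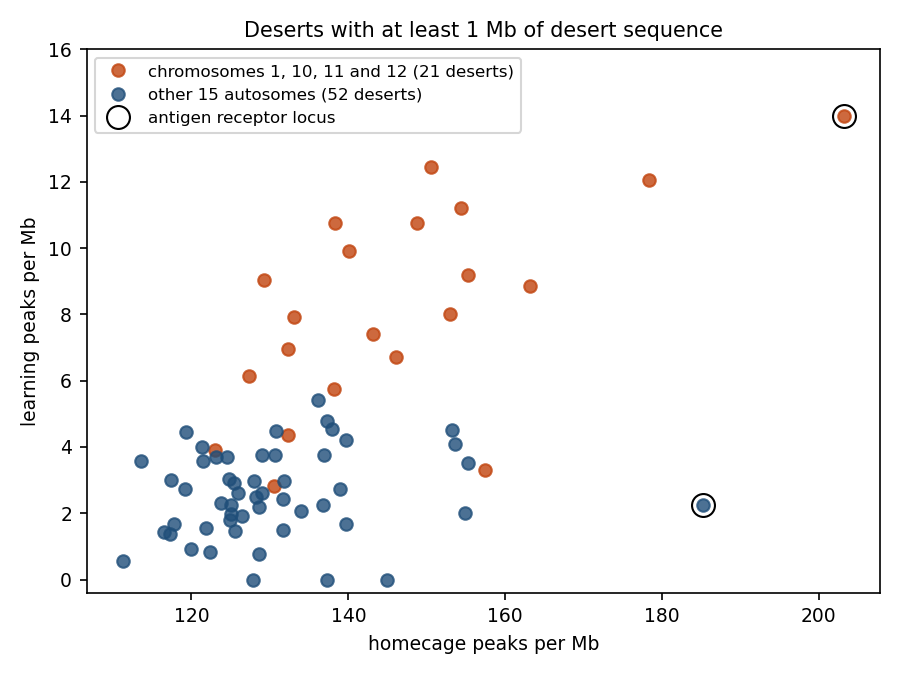
Learning against homecage peaks per Mb in each of the 73 deserts of at least 1 Mb, on chromosomes 1, 10, 11 and 12 (orange, 21 deserts) and the other 15 autosomes (blue, 52 deserts), with the antigen receptor loci circled. The orange points span 2.82 to 14.0 learning peaks per Mb and the blue points 0 to 5.41, over homecage densities of 111 to 203.

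Over all desert windows together, homecage counts varied about as much as independent placement would give. Their density was not the same everywhere, at 122 per Mb in the deserts of chromosome 9 and 151 in those of chromosome 1. In 1897 desert windows of 100 kb the homecage count ran from 5 to 39 with a median of 13, and no window was empty. Its variance was 1.03 times its mean, the value near 1 that events placed independently at one rate have, against 1.54 in 21574 windows that touch no desert. Learning counts had a variance 1.01 times their mean in desert windows of the 15 chromosomes and 1.66 times on chromosomes 1, 10, 11 and 12, against 3.35 and 2.28 in windows outside deserts. A learning peak was missing from 70.5% of desert windows. Neighbouring peaks within a desert were a median of 95041.5 bp apart in learning and 4878.5 bp in homecage.

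At noncoding genes of all classes pooled, homecage peaks were slightly more frequent than the share of sequence there. For learning peaks the interval includes that share. Sequence in or within 1 kb of a noncoding RefSeq gene made up 10.6% of the deserts. That is the share a single point would meet, whereas a peak was counted for any overlap. Here and for each class below, the share of sequence is therefore too low as a baseline for whole peaks. A baseline for whole peaks was not computed. It held 97 learning peaks (11.5%, 9.44% to 13.9%) and 3192 homecage peaks (11.8%, 11.4% to 12.2%). These genes include the entry Igh, which covers the whole interval between Adam6a and Zfp386, with 305 homecage peaks at 203 per Mb. The pooled shares were not computed without the antigen receptor intervals. The parts of these loci and of peak width in the higher homecage share were not tested. For lncRNA genes neither list showed an excess: the share of sequence was 6.97%, beside 6.18% of learning and 6.92% of homecage peaks. Pseudogenes took 1.42% of sequence, 1.90% of learning peaks (1.09% to 3.07%) and 1.71% of homecage peaks (1.55% to 1.87%). Antigen receptor segments took 0.370% of sequence, 1.31% of learning peaks (11 peaks, 0.654% to 2.33%) and 0.636% of homecage peaks (172 peaks, 0.545% to 0.739%). The 21 microRNA genes took 0.0217% of desert sequence and 12 homecage peaks (0.0444%, 0.0229% to 0.0775%). No learning peak lay there, and 0 of 842 allows a share of up to 0.437%, far above that share of sequence. The absence of learning peaks is therefore not informative.

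Genes of families known to border deserts were grouped in a pair of lists. Of 91 matched cell adhesion and axon guidance genes, 49 flanked a desert, and of 105 matched developmental transcription factor genes, 26 did, beside 455 of all 20661 protein-coding genes. Both lists were written with such families in mind, so these counts are descriptions. Deserts beside adhesion and guidance genes were long, with a median of 1287 kb, and those beside the transcription factors had a median of 262.2 kb, against 498.9 kb for all deserts. Their homecage densities were 132 and 131 per Mb. On the 15 chromosomes learning density was 2.46 per Mb (2.11 to 2.85) beside adhesion and guidance genes, 2.54 (1.67 to 3.70) beside transcription factors and 3.04 (2.64 to 3.49) in deserts with no listed neighbour, and these intervals overlap. On chromosomes 1, 10, 11 and 12 the values were 8.06 (6.70 to 9.61), 5.03 (3.07 to 7.77) and 8.90 (7.91 to 9.99), and the interval of the transcription factor group ends below that of deserts with no listed neighbour. That group rests on 6 deserts and 20 learning peaks.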

How the data were processed

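Reads were trimmed, aligned and peak-called by the authors with tools that the submitters' processing notes name as Trimmomatic, BWA and MACS2, on build mm10. The role and version of each are not given in the sources used here, nor is the use of the input libraries as control. The peak names in the deposited files speak of broad calling at a threshold of 0.01. Each deposited list gives a chromosome, start, end and name for each peak of 1 library, with no enrichment, p-value or read count, so depth is unknown and peaks could not be ranked by strength. Only peak positions, and the widths they give, were used. Start positions were read as counted from 0 and are printed 1-based.

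The 2 lists were assigned to conditions by their titles. Distances ran from the edge of a peak to the nearest edge of a protein-coding gene in the RefSeq table of GRCm38.p6 (20661 autosomal protein-coding genes). Density is peaks per Mb of desert or other sequence between the first and last peak of each chromosome. In the distance classes peaks were placed by their centre. Intervals are exact Poisson (counts and densities), exact conditional binomial (ratios) and exact Clopper-Pearson (shares), at 95%. Neighbouring peaks are not independent, so true errors are larger. Named deserts are the 10 longest, the 5 with the highest learning density and those without a learning peak among deserts of at least 1 Mb, and those beside listed genes. Named peaks are the 5 widest of each list and of the shared and unshared learning peaks. A selection of each is printed. Members, lists and rules were chosen with earlier results of these data known. The software was matplotlib 3.10.9, pandas 2.3.3, numpy 2.4.6 and scipy 1.17.1 under Python 3.11.15, and the functions were tested on simulated lists. Alternatives changed the distance limit, the genes that bound a desert, merging, minimum width, the overlap that counts as shared, the homecage list and the deserts or chromosomes kept. No genome of the build was used, so the base and repeat content of peaks was not analysed here. The 8 single-nucleus and 2 input libraries were not analysed here.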

Additional observations from a re-analysis of the deposited data

Results flagged for a closer look

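Chromosome X was outside the rule, and peaks there met the same distance limit. The learning list had 6 such peaks and the homecage list 65 in 12.9 Mb of desert, or 0.464 (0.170 to 1.01) and 5.02 (3.88 to 6.40) per Mb, against 4.17 and 134 per Mb in autosomal deserts. Of all 332168 homecage peaks, 329508 were autosomal, and of all 16243 learning peaks, 15844 were. Density on the rest of chromosome X was not computed, so the low values cannot be read as particular to its deserts. The left-out first 1 Mb of the autosomes held 22 homecage peaks and 2 learning peaks more than 500 kb from a gene, out of 2846 and 267 peaks in that zone. Input libraries were not analysed here, so these counts have no control beside them.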

How the results depend on the processing

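No paired analysis was possible because learning and homecage are represented by a single library each. Leaving out a replicate and a stricter p or q threshold could not be run for the same reason and because the lists hold no strengths. Of 75 recomputed values, 38 stayed within their error or within 1.5 times the count, 36 moved and 1 reversed. Limits on the distance gave 1629 learning and 52170 homecage desert peaks at 250 kb and 277 and 8816 at 1 Mb, with every density ratio, share and width within its interval. When every RefSeq gene bounded a desert, 12 learning and 318 homecage peaks were left, with density ratios of 0.782 and 0.996, 26.5 homecage peaks per learning peak, 16.7% shared and median widths of 210 and 335 bp. This alternative leaves few peaks, and its learning interval of 0.404 to 1.37 includes 1. Peaks of at least 500 bp numbered 95 and 6213, with density ratios of 0.436 and 0.897 and 65.4 homecage peaks per learning peak. Merging peaks closer than 1 kb gave a homecage density ratio of 0.987, 29.8 homecage peaks per learning peak and a homecage median width of 372 bp. With only the widest homecage peaks, as many as the learning list has, the homecage density ratio was 0.741 and the shared share 5.94%, and where the overlap had to reach 50% of the width of each peak the share was 10.7%, beside 14.4% outside deserts. Leaving out the desert with most learning peaks moved no ratio, share or width beyond its error, and left 808 learning and 26523 homecage peaks. The remaining alternatives were chosen after the data were seen. On chromosomes 1, 10, 11 and 12 there were 433 learning and 7531 homecage desert peaks, density ratios of 0.978 and 1.03 (the homecage ratio reversed), 17.4 homecage peaks per learning peak, 43.0% shared and median widths of 327 and 352 bp. On the other 15 autosomes there were 409 learning peaks, density ratios of 0.432 and 0.953, 47.7 homecage peaks per learning peak, 17.1% shared and a learning median width of 274 bp. Leaving out the antigen receptor intervals moved no ratio, share or median width beyond its error, and left 811 learning and 26160 homecage peaks. Leaving the first 1 Mb out of the other sequence gave density ratios of 0.618 and 0.975. Depth limits what the lists can show, since it is unknown and may differ between libraries.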
